A study of Homo sapiens with 12 samples.

Results

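This section describes what changed in JHU-029 cells, an established line of head and neck squamous cell carcinoma, after an shRNA against TP63. The samples are the 3 arrays labelled JHU-029 shTP63 and the 3 labelled JHU-029 shControl, which are 6 of the 12 arrays of the series and were taken by cell line and shRNA. The other 6 are the same pair of groups in FaDU, a second line of that cancer. Both JHU-029 groups received lentivirus, carrying either the TP63 shRNA or a control vector, and total RNA was collected 72 hours later. The labels name 1 TP63 shRNA and do not say which TP63 isoforms it reaches, so no second hairpin stands beside it. Nothing in the labels ties the 3 replicates of a group to separate cultures or infections. The p-values below therefore cover the spread seen among these 6 samples, part of which may be technical.

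TP63 encodes p63, a transcription factor of the p53 family. In stratified epithelia p63 maintains the basal layer, where it activates keratins, adhesion molecules and growth factor receptors, and squamous carcinomas often carry extra copies of its locus. The series addresses how p63 and ACTL6A, a subunit of the SWI/SNF chromatin remodelling complexes, act on Hippo signalling and its effector YAP1. The comparison of the JHU-029 groups asks which transcripts depend on p63 in this line.

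The arrays measured 32321 probe sets, and 18405 genes could be compared through 1 probe set each. Intensities are on a log2 scale throughout, and a change is the mean of the knockdown arrays minus the mean of the control arrays. Over the JHU-029 arrays the median log2 intensity lay between 6.46 and 6.51. Log2 intensities of arrays from the same JHU-029 group correlated at 0.99598 to 0.99714, and those from different groups at 0.9955 to 0.99637. Knockdown array 1 was as close to the controls (0.9956 to 0.99637) as to the other knockdown arrays (0.99598 and 0.99613). The level of TP63 is not analysed here, so the knockdown labels were not checked on the targeted gene. All 10 measured squamous epithelial markers, led by KRT5 and KRT14, lay above the array median, and their mean log2 intensity was 11.54 to 11.63 in controls and 11.46 to 11.59 after knockdown. Of the 10, 1 rose past the threshold (limma; 2 higher and 3 lower at an unadjusted p under 0.05). Markers of other cell types averaged far lower, though 4 of 13 fibroblast, 4 of 14 immune and 2 of 10 endothelial markers lay above the array median. Fibroblast markers averaged 5.804 to 5.872 in controls and 5.852 to 5.92 after knockdown, with 0 of 13 past the threshold (limma; 1 at an unadjusted p under 0.05). Immune markers averaged 5.724 to 5.754 and 5.699 to 5.752 (0 of 14; 1 unadjusted), and endothelial markers 5.309 to 5.363 and 5.229 to 5.399 (0 of 10; 0 unadjusted). In RNA of a whole culture, fewer cells of a type and less RNA per cell cannot be told apart.

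Few genes passed the threshold in JHU-029 after knockdown, and most of those changed by small amounts. At an adjusted p under 0.05 (limma, Benjamini-Hochberg over all 18405 genes), 580 genes passed (3.15%), of which 332 rose, 1.80% of those tested, and 248 fell, 1.35%. An unadjusted p under 0.05 was reached by 14.8% of genes. The median change among genes that rose was 0.36 on the log2 scale, or 1.28-fold, and among those that fell -0.36. A change of 2-fold or more was seen in 12 genes, of which 6 rose and 5 fell past the threshold. By intensity, genes were split into 4 groups of about equal size, and 0.456% of the dimmest group passed and 5.76% of the brightest, where the median SE was 0.0599 against 0.0962. The 6 arrays did not overlap between groups for 24.9% of all genes, 13.3% higher and 11.7% lower after knockdown, so a lack of overlap alone says little for 1 gene.

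**Figure D1:**
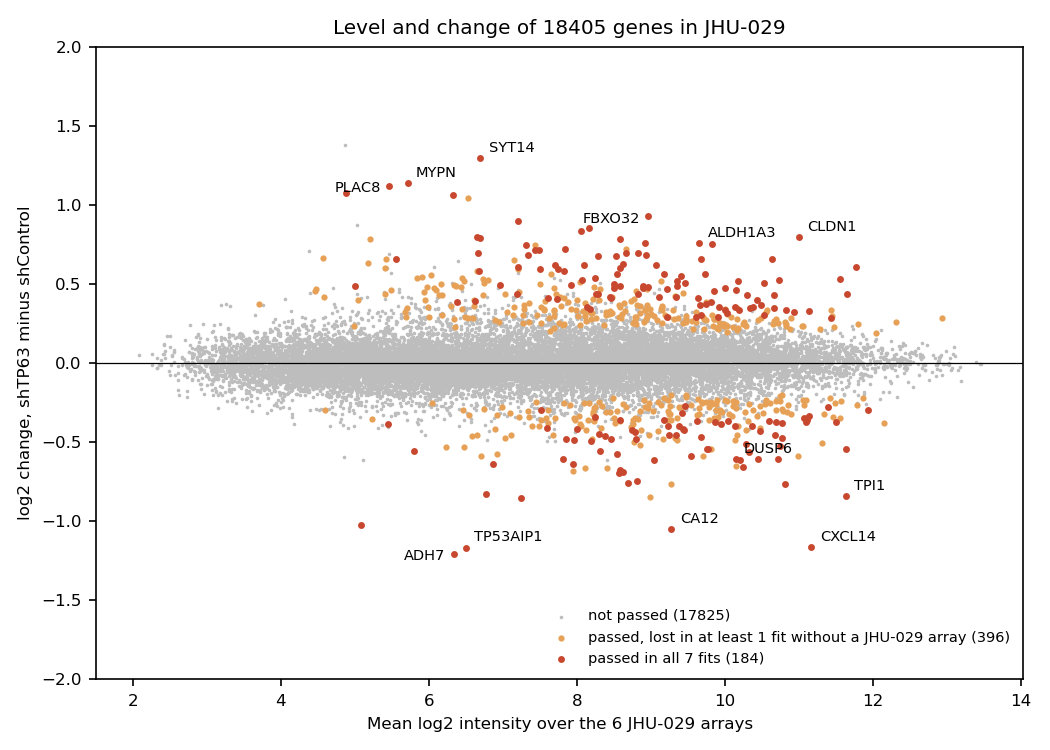
Each point is 1 of 18405 genes in JHU-029, by its mean log2 intensity over the 6 arrays (x axis) and its log2 change after TP63 knockdown (y axis); colours give the result of the limma test, and named genes are among the largest changes. Of the 580 genes past the threshold, 6 rises and 5 falls reach 2-fold, and the largest falls, ADH7, TP53AIP1, CXCL14 and CA12, lie between -1.21 and -1.05.

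Many of these calls were lost when an array was left out, which also leaves fewer arrays in the fit. Leaving out 1 JHU-029 array at a time gave 129 to 341 genes higher and 93 to 144 lower. Without knockdown array 1, 341 genes rose and 144 fell, so the share of calls that were higher went from 57.24% to 70.31%. A set of 107 genes rose (0.581% of those tested) and 77 fell (0.418%) with all arrays and in each of the 6 fits without 1 JHU-029 array. These 184 genes are said to have passed in all 7 fits, and the description below leads with them. Any gene named without that support is given with the arrays whose absence ended its call.

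**Figure D2:**
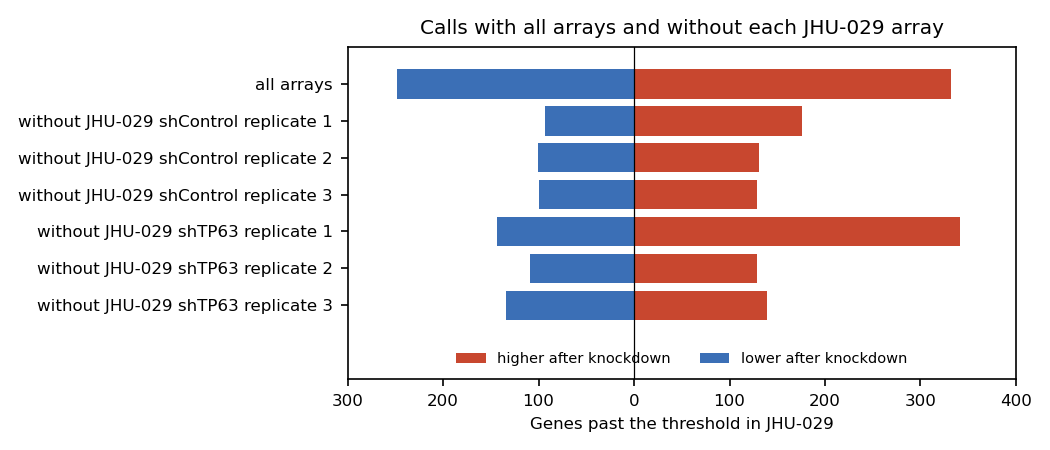
Bars give the number of genes past the threshold in JHU-029 (x axis, lower to the left and higher to the right) with all arrays and without each JHU-029 array in turn. The count of falls drops from 248 to between 93 and 144 whichever array is absent, while the count of rises stays near 332 only without shTP63 replicate 1.

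A pair of genes of vesicle transport, SYT14 and SYTL2, was among the largest rises, and RAB27A and RAB27B rose by less. SYT14, a synaptotagmin, a family of membrane trafficking proteins, had log2 intensities of 6.05, 5.99 and 6.10 on the control arrays and 7.03, 7.42 and 7.58 on the knockdown arrays. The knockdown arrays lay well above every control, a rise of 1.30 or 2.46-fold (SE 0.12, adjusted p = 0.000118). SYTL2, a synaptotagmin-like protein that binds the small GTPase Rab27, read 5.83, 5.78 and 5.76 on the control arrays and 6.76, 7.01 and 6.79 on the knockdown arrays, a rise of 1.06 (SE 0.14, adjusted p = 0.00149). RAB27A, which docks secretory vesicles at the plasma membrane, read 7.95, 7.99 and 7.98 on the control arrays and 8.43, 8.52 and 8.58 on the knockdown arrays, a rise of 0.54 (SE 0.07, adjusted p = 0.00233). Its paralog RAB27B read 9.43, 9.39 and 9.45 on the control arrays and 9.71, 9.93 and 9.87 on the knockdown arrays, a rise of 0.41 (SE 0.07, adjusted p = 0.00606). The groups did not overlap for any of these 4 genes, each of which passed in all 7 fits. RAB38, a GTPase of lysosome-related organelles, moved the other way, from 10.05, 10.02 and 10.07 to 9.55, 9.69 and 9.77, a fall of 0.38 (SE 0.06, adjusted p = 0.00813). Of 36 measured genes of synaptotagmins, Rabs and vesicle transport, 5 rose and 1 fell, and the median change was 0.077 against 0.00028 over all genes. For this list and those below, the JHU-029 shares over all genes were 1.80% higher and 1.35% lower. The lists were chosen with earlier results of these data known. A list's share or median beside that of all genes is therefore description only. In FaDU the changes of SYT14 and SYTL2 were 0.17 and 0.25, not past the threshold. The difference between the lines passed for both (adjusted p = 0.00102 and 0.0158). Both genes were dimmer on the FaDU control arrays, at means of 3.95 and 4.53 against 6.05 and 5.79 in JHU-029.

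Other large rises fell into no single pathway. MYPN, myopalladin, an actin-binding protein of the sarcomere, read 5.19, 5.07 and 5.18 on the control arrays and 6.07, 6.29 and 6.50 on the knockdown arrays, a rise of 1.14 or 2.20-fold (SE 0.10, adjusted p = 0.000118). FBXO32, the substrate adaptor of an SCF ubiquitin ligase known from muscle atrophy, went from 8.57, 8.43 and 8.49 to 9.29, 9.44 and 9.54, a rise of 0.93 (SE 0.07, adjusted p = 3.66e-05). Neither gene's groups overlapped. PLAC8, a small cysteine-rich protein, went from 5.16, 4.79 and 4.77 to 5.90, 6.06 and 6.11, a rise of 1.12 (SE 0.11, adjusted p = 0.00022). EVI2B, a transmembrane glycoprotein, went from 4.28, 4.22 and 4.55 to 5.16, 5.62 and 5.50, a rise of 1.08 (SE 0.14, adjusted p = 0.00134), at a dim probe set. For both genes the lowest knockdown array lay above the highest control. CDA, the cytidine deaminase of pyrimidine salvage, rose by 0.83 (SE 0.09, adjusted p = 0.000472) from 7.63, 7.67 and 7.62 to 8.36, 8.55 and 8.51, and NTN4, a secreted netrin, by 0.76 (SE 0.06, adjusted p = 4.32e-05) from 8.57, 8.55 and 8.53 to 9.19, 9.36 and 9.36. NCEH1, a neutral cholesterol ester hydrolase, rose by 0.75 from 9.47, 9.41 and 9.47 to 10.21, 10.29 and 10.11 (SE 0.06, adjusted p = 5.34e-05). The 7 genes of this paragraph passed in all 7 fits, as did CALB1, a calcium-binding protein (a rise of 0.79), GALNT7, an enzyme of mucin-type O-glycosylation (0.78), PGM2L1, which makes glucose 1,6-bisphosphate (0.75), RALGPS2, an exchange factor for Ral GTPases (0.72), and FRMD5, a FERM domain protein (0.72).

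Among the falls, ADH7, an alcohol dehydrogenase of the upper digestive epithelium that oxidises retinol, went furthest. Its log2 intensities were 7.10, 6.81 and 6.92 on the control arrays and 5.63, 5.58 and 5.998 on the knockdown arrays, a fall of 1.21 or 2.31-fold (SE 0.13, adjusted p = 0.000347). TP53AIP1, a mitochondrial pro-apoptotic protein that p53 induces, read 7.30, 7.02 and 6.95 on the control arrays and 5.72, 5.87 and 6.17 on the knockdown arrays, a fall of 1.17 (SE 0.14, adjusted p = 0.000978). For both genes every knockdown array lay well below the lowest control. CXCL14, a chemokine made by squamous epithelium, read 11.84, 11.69 and 11.72 on the control arrays and 10.39, 10.59 and 10.78 on the knockdown arrays, a fall of 1.16 or 2.24-fold (SE 0.09, adjusted p = 4.32e-05). CA12, a carbonic anhydrase of the plasma membrane, read 9.83, 9.78 and 9.80 on the control arrays and 8.65, 8.74 and 8.87 on the knockdown arrays, a fall of 1.05 (SE 0.10, adjusted p = 0.000168). Both were bright probe sets, and their controls lay close together. FOXP2, a forkhead transcription factor, went from 5.79, 5.55 and 5.47 to 4.42, 4.51 and 4.80, a fall of 1.03 (SE 0.13, adjusted p = 0.00149), at a dim probe set. For these 5 genes the FaDU changes were -0.09, -0.13, -0.02, 0.24 and 0.10, none past the threshold. The difference between the lines passed for each (adjusted p from 0.00014 to 0.00486). Mean log2 intensities on the FaDU control arrays were 4.89, 4.88, 6.67, 5.98 and 4.06. The JHU-029 control means were higher, at 6.94, 7.09, 11.75, 9.80 and 5.60. Whether a fall could show at these FaDU levels was not tested.

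Further falls that passed in all 7 fits were spread over surface, signalling and biosynthetic genes. SDC1, the heparan sulfate proteoglycan syndecan 1 of epithelial surfaces, fell by 0.61 (SE 0.06, adjusted p = 0.000135) from 10.53, 10.50 and 10.49 to 9.89, 9.84 and 9.94. PRKCH, a protein kinase C isoform of differentiating keratinocytes, fell by 0.69 (SE 0.08, adjusted p = 0.000578) from 8.99, 8.92 and 8.84 to 8.06, 8.27 and 8.34. Arrays of the groups did not overlap in either case. TMEM109, a membrane protein, fell by 0.76 (SE 0.05, adjusted p = 1.69e-05), DPH2, an enzyme of diphthamide synthesis, by 0.69 (SE 0.05, adjusted p = 4.32e-05), and B4GALNT1, a ganglioside synthase, by 0.68 (SE 0.06, adjusted p = 9.64e-05). CBLB, a ubiquitin ligase of receptor signalling, fell by 0.61 (SE 0.07, adjusted p = 0.00065), TAF9B, a TFIID-type factor, by 0.61 (SE 0.07, adjusted p = 0.000412), and PLAGL2, a zinc finger factor, by 0.61 (SE 0.11, adjusted p = 0.00832). GOLGA7B, of a Golgi protein family, fell by 0.85 (SE 0.11, adjusted p = 0.00107), the lipid-binding STARD5 by 0.59 (SE 0.09, adjusted p = 0.00477), and TPRXL by 0.64 (SE 0.09, adjusted p = 0.00266).

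**Figure D3:**
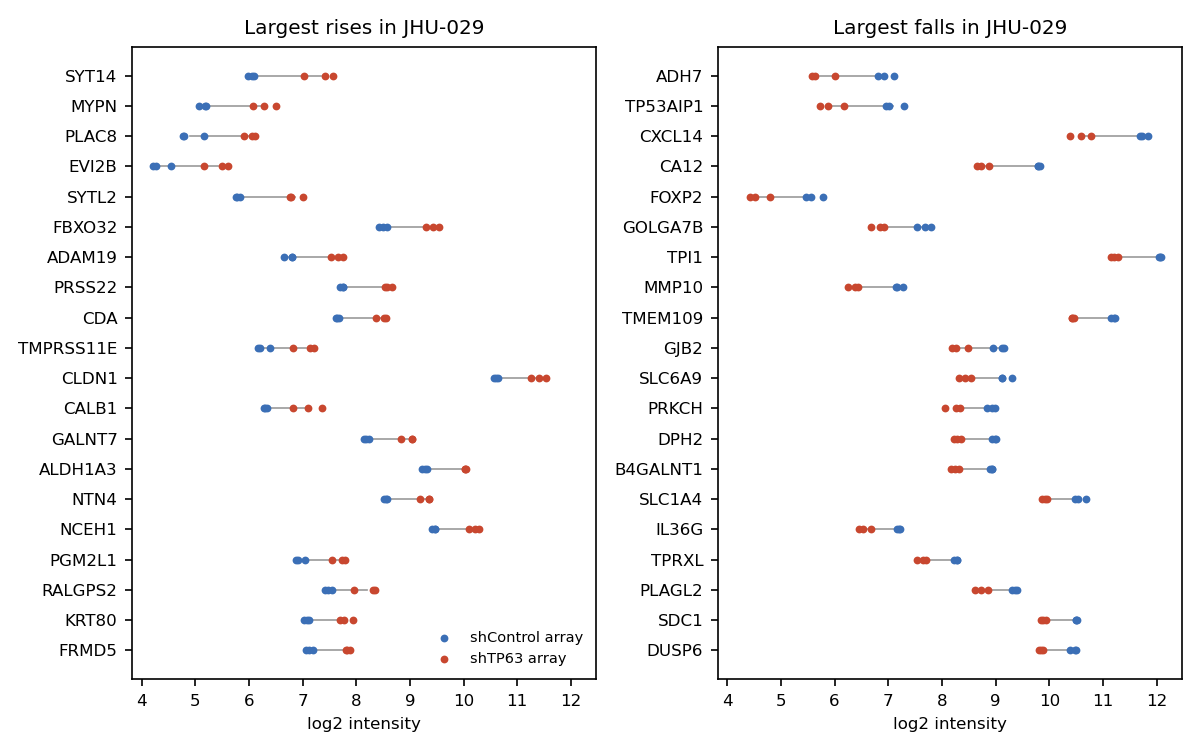
Log2 intensity (x axis) on each JHU-029 control array (blue) and knockdown array (red) for the 20 largest rises and 20 largest falls among genes that passed in all 7 fits; a grey line joins the group means. In all 40 genes the 3 knockdown arrays lie on one side of the 3 controls, which was part of how they were chosen.

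Promoter sequence of genes that moved was searched for elements known to act with p63, AP-1, YAP1 and the cell cycle. Windows from 250 bases before to 50 bases after the gene start, from RefSeq on GRCh38.p14, were at hand for 14228 of the genes tested, among them 262 that rose and 198 that fell. The paired core of a p53-family site was in 0.246% of all windows, in 0 of the 262 and in 0 of the 198. The AP-1 letters TGANTCA were in 5.58% of all windows, 7.25% of those that rose and 5.05% of those that fell. GGAATG, recognised by the TEAD partners of YAP1, was in 11.6%, 13.4% and 12.6%, and in 15 of the 79 windows of genes that rose and 6 of the 62 of genes that fell in all 7 fits. Both strands were read, no share was tested, and a match is a description of letters only. Shown first, with the AP-1 letters in capitals, are the windows of 3 of the largest falls, since each holds 1 such match close to its start. ADH7 (chr4:99435293-99435592, minus strand) has TGAGTCA beginning 34 bases upstream, CXCL14 (chr5:135578942-135579241, minus strand) has TGAGTCA at 92 bases, and MMP10, described further on (chr11:102780579-102780878, minus strand), has TGAATCA at 67 bases.
ADH7: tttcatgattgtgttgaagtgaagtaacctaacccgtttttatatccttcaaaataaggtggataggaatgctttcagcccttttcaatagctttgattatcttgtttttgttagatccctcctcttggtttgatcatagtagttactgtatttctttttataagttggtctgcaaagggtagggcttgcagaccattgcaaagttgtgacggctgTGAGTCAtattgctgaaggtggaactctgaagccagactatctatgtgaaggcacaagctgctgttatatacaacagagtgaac
CXCL14: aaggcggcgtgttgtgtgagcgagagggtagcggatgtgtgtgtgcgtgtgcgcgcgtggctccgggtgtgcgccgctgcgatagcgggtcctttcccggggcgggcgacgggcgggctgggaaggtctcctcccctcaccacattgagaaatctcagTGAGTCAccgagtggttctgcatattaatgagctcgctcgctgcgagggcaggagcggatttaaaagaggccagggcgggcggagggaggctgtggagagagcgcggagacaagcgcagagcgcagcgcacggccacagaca
MMP10: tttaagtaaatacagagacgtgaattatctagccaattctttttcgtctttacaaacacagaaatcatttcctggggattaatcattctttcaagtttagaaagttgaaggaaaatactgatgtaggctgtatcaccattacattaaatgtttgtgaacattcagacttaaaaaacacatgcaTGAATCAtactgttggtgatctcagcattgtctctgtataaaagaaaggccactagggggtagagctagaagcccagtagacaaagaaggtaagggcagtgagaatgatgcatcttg
MYPN (chr10:68109238-68109537, plus strand) is shown as a large rise with the TEAD letters on both strands, CATTCC at 197 bases upstream and GGAATG at 53, in capitals.
MYPN: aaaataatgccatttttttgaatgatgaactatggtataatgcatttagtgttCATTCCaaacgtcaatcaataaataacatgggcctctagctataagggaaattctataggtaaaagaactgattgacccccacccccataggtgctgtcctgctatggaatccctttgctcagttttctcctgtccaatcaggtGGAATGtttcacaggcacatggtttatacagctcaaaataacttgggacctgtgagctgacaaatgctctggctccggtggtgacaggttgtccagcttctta

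Most genes typical of basal keratinocytes or tied to p63 had small negative changes, and 17.65% passed against 3.15% of all genes. Of 34 measured, 5 fell and 1 rose, with 3 falls in all 7 fits (limma; 15 lower and 3 higher at an unadjusted p under 0.05). The groups did not overlap for 18 that were lower and 7 that were higher, against 11.7% and 13.3% of all genes. The median change was -0.105, which stayed between -0.1204 and -0.08653 without any 1 JHU-029 array. S100A2, a calcium-binding protein of basal cells, read 9.95, 9.89 and 9.90 on the control arrays and 9.42, 9.44 and 9.48 on the knockdown arrays, a fall of 0.47 (SE 0.06, adjusted p = 0.0016). BCAM, a laminin receptor, read 9.11, 8.95 and 9.07 on the control arrays and 8.48, 8.56 and 8.65 on the knockdown arrays, a fall of 0.48 (SE 0.06, adjusted p = 0.00149). NECTIN1, an adhesion molecule of adherens junctions, read 8.72, 8.76 and 8.80 on the control arrays and 8.33, 8.41 and 8.46 on the knockdown arrays, a fall of 0.36 (SE 0.06, adjusted p = 0.0045). The groups did not overlap in any of these 3 genes. The other falls were NRG1, a growth factor described below with the ERBB ligands, by 0.59, and JAG2, a Notch ligand of basal cells, by 0.24 (adjusted p = 0.037), each lost without any 1 array (highest adjusted p = 0.0948 and 0.145). Members with changes not past the threshold included DSC3 at -0.29, DSG3 at -0.22, EGFR at -0.22, ITGB4 at -0.20 and LAMB3 at -0.20, KRT15 at 0.25 and SOX2 at 0.23. KRT5 read 13.30, 13.20 and 13.24 on the control arrays and 13.12, 13.12 and 13.17 on the knockdown arrays, a change of -0.11 (adjusted p = 0.369), and KRT14 13.03, 12.88 and 12.87 on the control arrays and 12.79, 12.85 and 12.99 on the knockdown arrays, a change of -0.05 (adjusted p = 0.872). The groups stood just apart for KRT5 and overlapped for KRT14. TFAP2C, a transcription factor of the keratinocyte lineage, rose by 0.34 (adjusted p = 0.0102), and missed the threshold without control array 1 or knockdown array 2 (highest adjusted p = 0.0529). The same list had 26 falls and 2 rises in FaDU, where 14.2% of all genes fell and 12.5% rose. The difference between the lines passed for 23 of the 34 (13.2% of all genes).

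Genes of keratinocyte differentiation and the cornified envelope showed no common shift. Of 61 measured, 3 rose and 1 fell, and the median change was -0.038. KRT80, a keratin of differentiated epithelia, read 7.13, 7.02 and 7.09 on the control arrays and 7.93, 7.76 and 7.69 on the knockdown arrays, a rise of 0.72 (SE 0.08, adjusted p = 0.000412). GRHL1, a grainyhead factor that activates desmosomal genes, read 6.85, 6.64 and 6.64 on the control arrays and 7.06, 7.24 and 7.33 on the knockdown arrays, a rise of 0.50 (SE 0.08, adjusted p = 0.00606). Both passed in all 7 fits with no overlap between groups. FLG, filaggrin of the cornified layer, read 6.08, 6.15 and 6.44 on the control arrays and 6.74, 6.76 and 6.72 on the knockdown arrays, a rise of 0.52 (adjusted p = 0.00891) that missed the threshold without control array 2 (adjusted p = 0.0514). DSG1, the desmoglein of upper layers, read 7.41, 7.35 and 7.27 on the control arrays and 6.62, 7.15 and 6.88 on the knockdown arrays, a fall of 0.46 (adjusted p = 0.0421) that was lost in 5 of the 6 fits, all but that without knockdown array 2 (highest adjusted p = 0.157). Genes typical of simple and secretory epithelium gave 4 rises and 0 falls of 32 (limma; 1 lower at an unadjusted p under 0.05), with a median of 0.077. PLAC8 alone of the 4 passed in all 7 fits. KRT18, a keratin of simple epithelium, rose by 0.28 (adjusted p = 0.00832), and missed without control array 2 (adjusted p = 0.0514). A second KRT18 probe set changed by 0.20, and KRT18 has many processed copies in the genome.

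Among cell junction genes, tight junction members rose and connexins fell where they passed, and desmosome and adherens junction genes had calls in both directions; differences between these types were not tested. Of 33 measured tight junction genes, 5 rose and 0 fell (limma; 1 lower at an unadjusted p under 0.05). CLDN1, a claudin that seals the epidermal barrier, read 10.61, 10.64 and 10.57 on the control arrays and 11.26, 11.40 and 11.54 on the knockdown arrays, a rise of 0.80 or 1.74-fold (SE 0.07, adjusted p = 5.02e-05). CLDN7 read 7.71, 7.72 and 7.95 on the control arrays and 8.26, 8.52 and 8.46 on the knockdown arrays, a rise of 0.62 (SE 0.08, adjusted p = 0.00149), and PARD6B, a polarity adaptor, 9.05, 9.07 and 9.09 on the control arrays and 9.32, 9.38 and 9.38 on the knockdown arrays, a rise of 0.29 (SE 0.05, adjusted p = 0.00606). All 3 passed in all 7 fits, and the spread among the CLDN1 knockdown arrays was wider than among controls. The list's median was only 0.0116, and members such as TJP1 at 0.01 and CGN at -0.01 lay near 0. CLDN4 changed by 0.26 without passing. Connexins, the subunits of gap junctions, gave 2 falls and 0 rises of 12 (limma; 0 higher at an unadjusted p under 0.05). GJB2, connexin 26, read 8.95, 9.11 and 9.15 on the control arrays and 8.25, 8.19 and 8.48 on the knockdown arrays, a fall of 0.76 or 1.70-fold (SE 0.11, adjusted p = 0.00323), in all 7 fits. GJB6, connexin 30, read 9.73, 9.58 and 9.65 on the control arrays and 8.55, 9.01 and 9.09 on the knockdown arrays, a fall of 0.77 (adjusted p = 0.0127), and missed the threshold without control array 1 or 3 (highest adjusted p = 0.0579). These neighbouring genes are alike in sequence, and probes that read both cannot be told from separate falls. Of 15 desmosome genes 2 rose and 1 fell, with a median of -0.0779. PKP2, a desmosomal plakophilin, rose by 0.33 (SE 0.05, adjusted p = 0.00347) from 9.83, 9.87 and 9.80 to 10.12, 10.19 and 10.18, in all 7 fits. DSG2, a desmoglein, rose by 0.26 (adjusted p = 0.0114), lost without control array 1 or 3 or knockdown array 2 (highest adjusted p = 0.0608), and the fall was that of DSG1 above. Of 12 adherens junction genes NECTIN1 fell and EPCAM, an epithelial adhesion molecule, rose by 0.25 (adjusted p = 0.0177), lost in all but the fit without knockdown array 1 (highest adjusted p = 0.0844), with a median of 0.0232 for the list.

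Among genes of adhesion to the matrix, a pair of integrin subunits rose. Of 21 measured hemidesmosome, integrin and laminin genes, 2 rose and 0 fell (limma; 7 lower at an unadjusted p under 0.05), and the median was -0.039. ITGB8 read 10.31, 10.29 and 10.34 on the control arrays and 10.88, 11.05 and 10.98 on the knockdown arrays, a rise of 0.66 (SE 0.07, adjusted p = 0.000599), and ITGB6 10.55, 10.44 and 10.40 on the control arrays and 10.90, 11.03 and 11.03 on the knockdown arrays, a rise of 0.53 (SE 0.08, adjusted p = 0.0045). Both encode beta subunits of integrins that bind and activate latent TGF-beta. ITGB6 moved the other way in FaDU, by -0.36, and the difference between the lines passed (adjusted p = 0.000438). Among other adhesion-related genes, EDIL3, a secreted integrin ligand, rose by 0.56 (SE 0.09, adjusted p = 0.00606) from 9.52, 9.38 and 9.44 to 9.92, 10.09 and 10.02, and ANXA3, an annexin, by 0.55 (SE 0.08, adjusted p = 0.00312) from 9.15, 9.14 and 9.09 to 9.64, 9.67 and 9.72, both in all 7 fits.

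Genes at the output of growth factor signalling fell more often than they rose, with limited support. Of 31 measured genes of ERK feedback and output, 7 fell and 2 rose with all arrays, but without 1 JHU-029 array only 1 or 2 falls remained. DUSP6, the ERK phosphatase induced by ERK itself, read 10.39, 10.47 and 10.49 on the control arrays and 9.80, 9.88 and 9.84 on the knockdown arrays, a fall of 0.61 or 1.53-fold (SE 0.07, adjusted p = 0.000626). DUSP10, a phosphatase of p38 and JNK, read 9.64, 9.61 and 9.61 on the control arrays and 10.00, 10.07 and 10.16 on the knockdown arrays, a rise of 0.46 (SE 0.08, adjusted p = 0.00606). These passed in all 7 fits, with no overlap of groups. EGR1, an immediate early factor, read 8.98, 9.05 and 8.96 on the control arrays and 8.65, 8.62 and 8.65 on the knockdown arrays, a fall of 0.35 (adjusted p = 0.00938) that missed only without control array 2 (adjusted p = 0.0549). ETV4 and SPRY4, an ETS factor and a feedback inhibitor of ERK signalling, fell by 0.35 and 0.32, and each missed in all 6 fits without an array (highest adjusted p = 0.154 and 0.165). Among 24 ERBB and FGF receptors and ligands, 3 ligands or ligand carriers fell and 0 members rose (limma; 2 higher at an unadjusted p under 0.05). NRG1, a ligand of ERBB3 and ERBB4, read 11.29, 11.29 and 11.26 on the control arrays and 10.68, 10.71 and 10.70 on the knockdown arrays, a fall of 0.59 (adjusted p = 0.0254). Its JHU-029 arrays lay close together within each group, while the SE, pooled over all 4 groups, was 0.13, and NRG1 missed in all 6 fits without an array (highest adjusted p = 0.0948). A second NRG1 probe set fell by 0.50 (adjusted p = 0.000357 over all probe sets). FGFBP1, which carries FGFs, fell by 0.35 and TGFA, an EGFR ligand, by 0.35, neither in all 7 fits (highest adjusted p = 0.0757, without any of control arrays 1 to 3 or knockdown arrays 1 and 2, and 0.137, without any array).

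Hippo signalling, the subject of the series, gave 1 rise and 1 fall among 38 measured components, both small, or 5.26% against 3.15% of all genes. WWC1, the upstream activator KIBRA, read 8.11, 7.95 and 8.09 on the control arrays and 8.37, 8.40 and 8.32 on the knockdown arrays, a rise of 0.32 (adjusted p = 0.0182), and YAP1 10.83, 10.82 and 10.78 on the control arrays and 10.55, 10.61 and 10.55 on the knockdown arrays, a fall of 0.24 (adjusted p = 0.0172). Their groups did not overlap. WWC1 missed the threshold without control array 2 or 3 or knockdown array 2 (highest adjusted p = 0.0971). YAP1 missed it without any 1 control array or knockdown array 3 (highest adjusted p = 0.0827). Of 27 YAP and TAZ target genes, 2 rose and 1 fell, with a median of 0.0078. AXL, a receptor tyrosine kinase, read 8.73, 8.86 and 8.59 on the control arrays and 9.18, 9.25 and 9.20 on the knockdown arrays, a rise of 0.48 (SE 0.07, adjusted p = 0.00418), and TGFB2, a TGF-beta ligand, 8.81, 9.01 and 8.87 on the control arrays and 9.35, 9.31 and 9.28 on the knockdown arrays, a rise of 0.42 (SE 0.07, adjusted p = 0.0045). Each passed in all 7 fits. NT5E, the ectonucleotidase CD73, fell by 0.45 (adjusted p = 0.0119), but not without control array 2 or 3 (highest adjusted p = 0.065). The classical targets CCN1 and CCN2 changed by 0.10 and 0.04 (adjusted p = 0.62 and 0.922), with overlapping arrays, and the sign of CCN2 turned without control array 1 or knockdown array 3. Of 28 SWI/SNF subunit genes 0 passed (limma; 4 lower and 0 higher at an unadjusted p under 0.05). ACTL6A read 9.40, 9.41 and 9.40 on the control arrays and 9.39, 9.37 and 9.48 on the knockdown arrays, a change of 0.0042 whose sign turned under quantile normalisation (-0.00730), cyclic loess (-0.00933) and without knockdown array 3 (-0.0285). Genes of distal 3q, the region that holds TP63 and ACTL6A, gave 3 rises and 1 fall of 32, with a median of 0.0858. CLDN1 and TNFSF10, the death ligand TRAIL (a rise of 0.51, SE 0.08, adjusted p = 0.00425), passed in all 7 fits.

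Most cell cycle genes had small positive changes, few of which passed. Of 68 measured G2 and mitosis genes, 59 changed in the positive direction, 38 had all knockdown arrays above all controls (13.3% of all genes), and 5 rose and 1 fell past the threshold. Their median was 0.0958, between 0.0888 and 0.109 without any 1 JHU-029 array, against 0.00028 over all genes. KIF20B, a kinesin of cytokinesis, read 8.62, 8.62 and 8.57 on the control arrays and 8.98, 9.09 and 9.05 on the knockdown arrays, a rise of 0.44 or 1.35-fold (SE 0.05, adjusted p = 0.00122), and was the member that passed in all 7 fits. ANLN, anillin of the contractile ring, read 12.14, 12.26 and 12.15 on the control arrays and 12.46, 12.44 and 12.42 on the knockdown arrays, a rise of 0.26 (adjusted p = 0.0211) that was lost in 5 of the 6 fits, all but that without control array 2 (highest adjusted p = 0.103). FOXM1, a transcription factor of the mitotic programme, went the other way, 10.34, 10.27 and 10.26 on the control arrays and 9.95, 9.99 and 10.07 on the knockdown arrays, a fall of 0.29 (adjusted p = 0.0228), lost in all but the fit without knockdown array 3 (highest adjusted p = 0.104). For genes of S phase and DNA replication, 38 of 53 changes were positive, 2 rose and 1 fell, and the median was 0.0747. CCNE2, a cyclin of S phase entry, rose by 0.26 and RRM2, a ribonucleotide reductase subunit, by 0.26, while E2F7, a repressor of E2F targets, fell by 0.30. Each of these calls was lost in at least 5 of the 6 fits (highest adjusted p = 0.156, 0.154 and 0.107), that of RRM2 surviving only without control array 2 and that of E2F7 only without knockdown array 1. Centrosome and centriole genes had 0 calls of 41 (limma; 8 higher and 1 lower at an unadjusted p under 0.05) and a median of 0.0782. In FaDU the same G2 and mitosis genes gave 23 falls and 3 rises with a median of -0.0796, where 14.2% of all genes fell and 12.5% rose. The difference between the lines passed for 20 of 68 (13.2% of all genes).

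Mitotic genes are known for a CHR element, TTTGAA, often with a CCAAT box upstream. CHR letters were in 63.2% of the 57 promoter windows of the G2 and mitosis list and CCAAT in 68.4%, against 11.9% and 36.3% of all windows. Among genes that rose, 17.2% of windows held the CHR letters, and among those that fell 10.1%. KIF20B (chr10:89701340-89701639, plus strand) is shown as the mitotic gene with the firmest rise. In capitals, TTTGAA begins 24 and again 30 bases after the start, and the CCAAT box, on the other strand and so read as ATTGG here, begins 131 and 98 bases upstream. No site shown overlaps another.
KIF20B: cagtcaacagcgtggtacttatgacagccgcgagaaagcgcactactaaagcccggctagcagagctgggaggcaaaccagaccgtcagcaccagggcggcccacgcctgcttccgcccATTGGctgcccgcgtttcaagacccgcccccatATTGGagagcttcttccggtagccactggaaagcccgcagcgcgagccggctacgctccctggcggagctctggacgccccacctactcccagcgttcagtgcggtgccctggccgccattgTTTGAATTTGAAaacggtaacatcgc

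Genes that p53-family proteins activate, and ubiquitin ligase adaptors, had mixed changes. Of 33 measured p53-family targets, 2 rose and 1 fell, and the median was 0.0371. Beside the fall of TP53AIP1, PLK2, a polo-like kinase, read 10.48, 10.50 and 10.49 on the control arrays and 10.90, 10.80 and 10.81 on the knockdown arrays, a rise of 0.35 (SE 0.06, adjusted p = 0.00635) in all 7 fits. CCNG1, cyclin G1, rose by 0.31 (adjusted p = 0.0211), lost in all but the fit without knockdown array 1 (highest adjusted p = 0.0996). Of 46 F-box and SOCS adaptors, FBXO32 rose and BTRC and SKP2 fell, all in all 7 fits. BTRC, which targets beta-catenin and IkB for destruction, read 8.55, 8.49 and 8.51 on the control arrays and 7.96, 8.13 and 8.12 on the knockdown arrays, a fall of 0.45 (SE 0.06, adjusted p = 0.00122). SKP2, which targets the cell cycle inhibitor p27, read 12.07, 12.11 and 12.08 on the control arrays and 11.77, 11.80 and 11.80 on the knockdown arrays, a fall of 0.30 (SE 0.05, adjusted p = 0.00447). CDKN1B, the p27 gene, rose by 0.28 (adjusted p = 0.0196), lost in all but the fit without knockdown array 1 (highest adjusted p = 0.0926). Among the 25 FOXO factors and associated genes, 3 rose and 1 fell. SESN3, a sestrin of the stress response, read 10.66, 10.57 and 10.60 on the control arrays and 9.87, 10.13 and 10.15 on the knockdown arrays, a fall of 0.56 (SE 0.09, adjusted p = 0.00507), in all 7 fits.

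Genes of proteases and their inhibitors gave 6 rises and 1 fall in 2 lists, of which 8.33% and 12.5% of members passed against 3.15% of all genes. Of 36 serine protease and serpin genes, 3 rose and 0 fell (limma; 3 lower at an unadjusted p under 0.05), and the median was 0.0431. PRSS22, tryptase epsilon, a protease of airway epithelium, read 7.76, 7.75 and 7.70 on the control arrays and 8.57, 8.67 and 8.53 on the knockdown arrays, a rise of 0.86 or 1.81-fold (SE 0.06, adjusted p = 1.82e-05). TMPRSS4, a transmembrane protease, read 6.30, 6.41 and 6.26 on the control arrays and 6.92, 7.04 and 7.08 on the knockdown arrays, a rise of 0.69 (SE 0.07, adjusted p = 0.000177). TMPRSS11E, of the same family, read 6.39, 6.21 and 6.17 on the control arrays and 6.82, 7.14 and 7.21 on the knockdown arrays, a rise of 0.80 (SE 0.09, adjusted p = 0.000626). All 3 passed in all 7 fits. For TMPRSS11E a second, dimmer probe set changed by -0.16 (adjusted p = 0.872 over all probe sets), and the median of both missed the threshold (0.32, adjusted p = 0.386). Among 32 metalloproteases, ADAMs and their inhibitors, 3 rose and 1 fell. ADAM19, a sheddase, read 6.65, 6.80 and 6.80 on the control arrays and 7.66, 7.75 and 7.53 on the knockdown arrays, a rise of 0.90 (SE 0.10, adjusted p = 0.000612), and TIMP2, a metalloprotease inhibitor, 8.84, 8.76 and 8.68 on the control arrays and 9.31, 9.40 and 9.44 on the knockdown arrays, a rise of 0.62 (SE 0.10, adjusted p = 0.0045). MMP10, stromelysin 2, read 7.28, 7.13 and 7.15 on the control arrays and 6.25, 6.38 and 6.44 on the knockdown arrays, a fall of 0.83 or 1.78-fold (SE 0.08, adjusted p = 0.000257). These 3 passed in all 7 fits. MMP10, whose promoter is shown above, fell by 2.66 in FaDU, and the difference between the lines passed (adjusted p = 3.95e-06). MMP7, matrilysin, rose by 0.53 (adjusted p = 0.0266), lost without control array 1 or 3 or knockdown array 2 or 3 (highest adjusted p = 0.121).

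Among inflammation genes, interleukin 1 family members fell and IL6 rose. Of 31 measured, 4 fell and 2 rose, and the median was -0.0852, between -0.0909 and -0.0778 without any 1 JHU-029 array. IL36G, an epithelial cytokine of the interleukin 1 family, read 7.20, 7.22 and 7.16 on the control arrays and 6.45, 6.69 and 6.52 on the knockdown arrays, a fall of 0.64 (SE 0.07, adjusted p = 0.000285). IL6, a cytokine of acute inflammation, read 7.53, 7.64 and 7.42 on the control arrays and 8.01, 8.18 and 8.16 on the knockdown arrays, a rise of 0.59 (SE 0.07, adjusted p = 0.000994). Both passed in all 7 fits and their groups did not overlap. IL1A read 10.35, 10.41 and 10.39 on the control arrays and 9.84, 9.92 and 9.94 on the knockdown arrays, a fall of 0.49 (adjusted p = 0.0425), and IL1B fell by 0.36 (adjusted p = 0.0385), each lost without any 1 array (highest adjusted p = 0.145 and 0.157). PTGS2, cyclooxygenase 2, fell by 0.36 (adjusted p = 0.0182), lost in all but the fit without knockdown array 2 (highest adjusted p = 0.0784). LCN2, lipocalin 2, rose by 0.38 (adjusted p = 0.0139), lost without control array 2 or 3 or knockdown array 2 or 3 (highest adjusted p = 0.0708). Of 19 chemokine genes CXCL14 fell and CCL20, at a dim probe set, rose by 0.42 (adjusted p = 0.0433), lost without any 1 array (highest adjusted p = 0.179). Of 42 interferon-stimulated genes, 2 rose, SAMD9L by 0.44 and its paralog SAMD9 by 0.24. Neither passed in all 7 fits (highest adjusted p = 0.0948, without control array 2 or 3 or knockdown array 2 or 3, and 0.178, in all but the fit without knockdown array 1).

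Metabolic changes lay at single enzymes and at transporters. In retinoid metabolism the fall of ADH7 stood beside a rise of ALDH1A3, which makes retinoic acid from retinaldehyde. ALDH1A3 read 9.31, 9.29 and 9.23 on the control arrays and 10.03, 10.03 and 10.04 on the knockdown arrays, a rise of 0.76 or 1.69-fold (SE 0.05, adjusted p = 1.69e-05). Its knockdown arrays were nearly identical. A second ALDH1A3 probe set changed by 0.25 without passing (adjusted p = 0.246 over all probe sets). The other 29 measured retinoid, alcohol and aldehyde dehydrogenase genes did not pass. Of 14 carbonic anhydrases, CA12 fell and CA2, the cytosolic form, read 9.37, 9.35 and 9.32 on the control arrays and 9.83, 10.06 and 10.13 on the knockdown arrays, a rise of 0.66 (SE 0.08, adjusted p = 0.00124) in all 7 fits. Glycolytic enzymes gave 2 falls and 0 rises of 22 (limma; 2 higher at an unadjusted p under 0.05). TPI1, triosephosphate isomerase, read 12.08, 12.04 and 12.06 on the control arrays and 11.15, 11.21 and 11.28 on the knockdown arrays, a fall of 0.84 or 1.79-fold (SE 0.05, adjusted p = 1.69e-05), and a second TPI1 probe set fell by 0.91. PFKFB4, which sets fructose 2,6-bisphosphate, read 7.84, 7.78 and 7.76 on the control arrays and 7.38, 7.39 and 7.38 on the knockdown arrays, a fall of 0.41 (SE 0.05, adjusted p = 0.000978). The other glycolytic genes stayed near 0, as GAPDH at -0.03, PKM at -0.03, PGK1 at 0.03 and LDHA at 0.05, so the list's median was -0.0262.

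Most amino acid transporters that passed fell. Of 32 measured, 5 fell and 1 rose, 4 and 1 of them in all 7 fits, while changes were negative in 20 and positive in 12 and the median was -0.0255. SLC6A9, a glycine transporter, read 9.30, 9.12 and 9.12 on the control arrays and 8.32, 8.43 and 8.55 on the knockdown arrays, a fall of 0.75 or 1.68-fold (SE 0.08, adjusted p = 0.000589). SLC1A4, which carries alanine, serine and cysteine, read 10.69, 10.48 and 10.54 on the control arrays and 9.86, 9.92 and 9.95 on the knockdown arrays, a fall of 0.66 (SE 0.09, adjusted p = 0.00185). SLC6A15, a carrier of branched-chain amino acids and proline, read 8.46, 8.41 and 8.43 on the control arrays and 7.84, 7.95 and 8.04 on the knockdown arrays, a fall of 0.49 (SE 0.08, adjusted p = 0.00459). Control and knockdown arrays were apart in each. SLC7A1, a cationic amino acid transporter, read 11.33, 11.25 and 11.29 on the control arrays and 10.89, 10.95 and 10.95 on the knockdown arrays, a fall of 0.36 (SE 0.05, adjusted p = 0.00385). SLC1A3, a glutamate transporter, rose instead, 7.83, 7.77 and 7.81 on the control arrays and 8.17, 8.36 and 8.45 on the knockdown arrays, by 0.53 (SE 0.08, adjusted p = 0.00279). In FaDU SLC1A3 fell by 1.33, and the difference between the lines passed (adjusted p = 1.9e-06). Of 29 ATF4 and unfolded protein response genes, several of which serve amino acid supply, ASNS, asparagine synthetase, fell, from 9.67, 9.60 and 9.65 to 9.19, 9.20 and 9.28, by 0.42 (SE 0.06, adjusted p = 0.00224), in all 7 fits, and 0 rose (limma; 1 higher at an unadjusted p under 0.05). RPS27 was the ribosomal protein gene that rose, 1 of 41, by 0.61 (SE 0.06, adjusted p = 0.000168) from 11.52, 11.42 and 11.43 to 12.11, 12.02 and 12.08, with 0.95 at a second probe set. RPS27 has processed copies, and probes may read them.

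Among secreted regulators of development, the TGF-beta and BMP list of 43 genes had 4 rises and 2 falls. TGFBR2, the type II receptor of TGF-beta, read 9.72, 9.83 and 9.73 on the control arrays and 10.24, 10.26 and 10.20 on the knockdown arrays, a rise of 0.47 (SE 0.05, adjusted p = 0.00065). ID1, an inhibitor of differentiation that BMP signals induce, read 10.28, 10.20 and 10.21 on the control arrays and 10.61, 10.65 and 10.62 on the knockdown arrays, a rise of 0.40 (SE 0.06, adjusted p = 0.00477). FST, follistatin, a secreted trap for activins, read 11.87, 11.92 and 11.94 on the control arrays and 11.43, 11.36 and 11.31 on the knockdown arrays, a fall of 0.54 (SE 0.07, adjusted p = 0.00205). With TGFB2 above, these passed in all 7 fits with groups apart. ID3, a relative of ID1, rose by 0.37 and INHBA, the activin A subunit, fell by 0.41, each lost without any 1 array (highest adjusted p = 0.182 and 0.129). DKK1, a secreted Wnt antagonist, read 11.25, 11.31 and 11.30 on the control arrays and 11.81, 11.84 and 11.82 on the knockdown arrays, a rise of 0.53 (SE 0.07, adjusted p = 0.000986) in all 7 fits. DKK3, of the same family, fell by 0.34 (adjusted p = 0.0388), lost without any 1 array (highest adjusted p = 0.144). Of 26 Notch genes, 1 rose and 2 fell, none in all 7 fits. KITLG, the ligand of the KIT receptor, read 8.26, 8.38 and 8.21 on the control arrays and 8.88, 8.91 and 8.87 on the knockdown arrays, a rise of 0.60 (SE 0.10, adjusted p = 0.00522) in all 7 fits.

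Several lists had few or no calls, where 3.15% of all genes passed. Mesenchymal and EMT genes gave 0 of 27 (limma; 1 higher and 4 lower at an unadjusted p under 0.05), and SR protein and spliceosome genes 0 of 42 (0 higher and 2 lower unadjusted). Ribosome biogenesis gave 1 fall of 46 with a median of -0.0411, where FaDU had 41 falls (14.2% of all genes) and a median of -0.353. DNA repair gave 1 rise of 41, BCL2 family and apoptosis inhibitors 1 of 21, NRF2-type detoxification 1 of 23, and hypoxia-inducible genes 1 rise and 1 fall of 24. Cholesterol and fatty acid synthesis gave 1 rise and 1 fall of 26, and sarcomere and muscle-type genes 2 rises of 34, with MYPN the one in all 7 fits. Over the 48 lists, some of which share genes, 1387 of 1482 genes were measured.

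**Figure D4:**
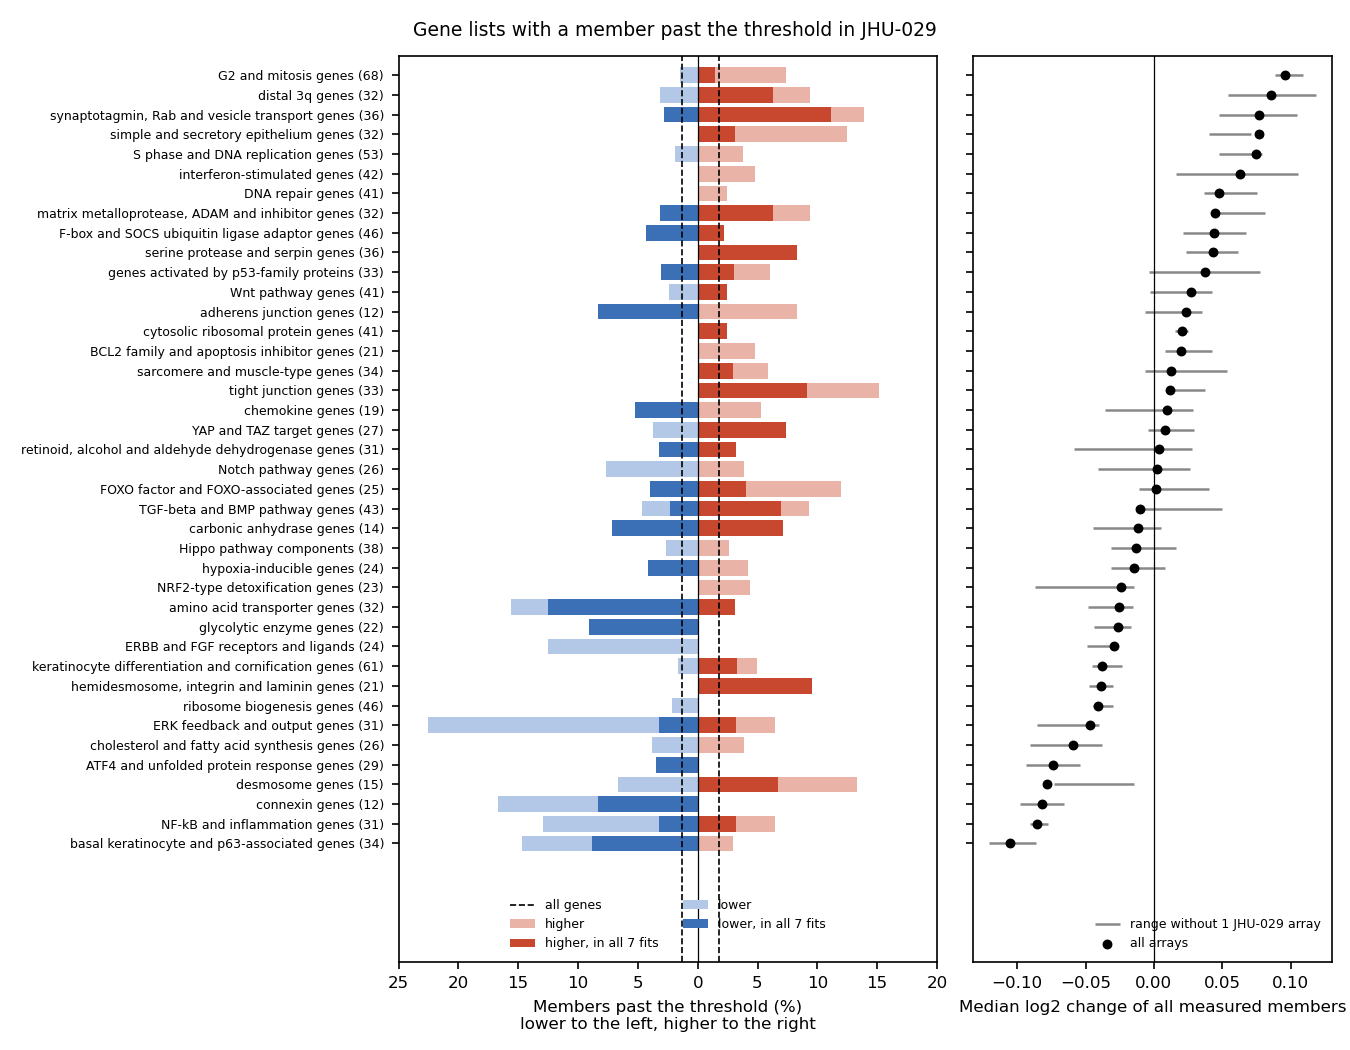
Left, percent of the measured members of each list (number in brackets) that rose (right of 0) or fell (left of 0) in JHU-029, with darker bars for genes that passed in all 7 fits and dashed lines for all genes (1.80% higher, 1.35% lower). Right, median log2 change of all measured members (point) and its range without 1 JHU-029 array (line); medians lie between -0.105 for basal keratinocyte genes and 0.0958 for G2 and mitosis genes. Lists with no call and the cell type markers are not drawn.

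Fewer genes passed in JHU-029 than in FaDU, and most that passed in both had the same sign. In FaDU 4901 genes passed (26.6%), against 580 in JHU-029. Of the 580, 336 passed in FaDU with the same sign, which is 57.9% of the JHU-029 calls and 6.86% of the FaDU calls, 34 passed with the opposite sign, and 210 did not pass in FaDU. The lines share no control arrays, and the median SD between arrays was 0.0750 in JHU-029 and 0.0986 in FaDU. Some FaDU control arrays, but no FaDU knockdown array, carry the word new in their titles, and what it marks is not stated. Its bearing on the FaDU changes, and so on the differences between the lines, was not tested. The test of the difference between the lines was passed by 109 of the 184 genes that had passed in all 7 JHU-029 fits, and JHU-029 had the larger change in 64 of them. FBXO32 and EVI2B also rose in FaDU, by 0.97 and 0.98, and their differences did not pass (-0.04, adjusted p = 0.831, and 0.09, adjusted p = 0.824). DUSP6, DPH2, TMEM109 and SKP2 fell in both lines and more in FaDU, by 1.80, 1.79, 1.53 and 1.25 there (adjusted p of the difference at most 4.07e-05).

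Genes that moved in opposite directions were few. CA2 rose in JHU-029 and fell by 0.97 in FaDU, and KITLG rose and fell by 0.85 (adjusted p of the difference = 7.72e-06 and 4.81e-05). SESN3, FST and GOLGA7B fell in JHU-029 and rose in FaDU by 0.78, 0.40 and 0.34 (adjusted p of the difference at most 0.00032). DUSP10 and BCAM also had opposite signs, at -0.38 and 0.28 in FaDU, both past the threshold there. NDUFB1, a subunit of respiratory complex I, rose by 0.60 in JHU-029 and fell by 0.39 in FaDU, but its JHU-029 call was lost without control array 3 (adjusted p = 0.0506). The differences for CA2, KITLG, SESN3, FST and GOLGA7B passed in each of the 12 fits that left out 1 array of either line.

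**Figure D5:**
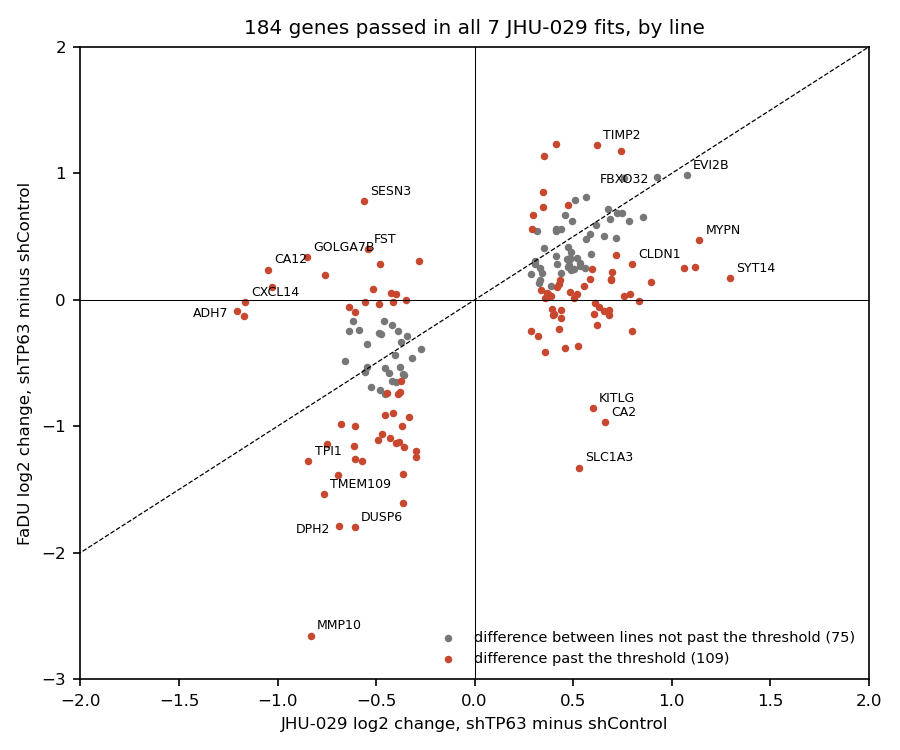
Log2 change after TP63 knockdown in JHU-029 (x axis) and FaDU (y axis) for the 184 genes that passed in all 7 JHU-029 fits; red points passed the test of the difference between the lines (109) and grey points did not (75), and the dashed line marks equal change. CA2, KITLG and SLC1A3 lie at lower right and SESN3, FST and GOLGA7B at upper left, while ADH7 and CXCL14 lie near 0 in FaDU. ADH7 and CXCL14 were both dimmer on the FaDU than on the JHU-029 control arrays.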

How the data were processed

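Gene expression was measured in 12 samples by single-channel arrays. The authors deposited linear intensity values, made by RMA (background correction, quantile normalisation and median polish of probes) with R 2.15.1, per the submitters' processing notes; the RMA implementation, the genome build and whether all arrays were normalised together are not given in the sources used here. RMA values carry no detection calls, and precision is limited by the 3 arrays per group. Here log2 was taken, and 19159 of 32321 probe sets with 1 gene symbol in the platform table were kept (1387 had several, 11775 were not listed), of which 19128 matched a RefSeq gene by Entrez ID and 0 symbols changed. Each of 18405 genes was read from its probe set of highest mean log2 intensity across the series (637 had more than 1).

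With limma 3.58.1 (R 4.3.3), 1 linear model covered the 4 groups and the 12 arrays (8 residual and 4.16 prior degrees of freedom), with contrasts of shTP63 minus shControl per line and their difference. Tests were two-sided, adjusted by Benjamini-Hochberg over all genes at 0.05, with no fold minimum. The pipeline was tested on simulated data. Alternatives were JHU-029 arrays alone, variance priors, scalings, an added constant of 16, a filter on dim probe sets, probe set choice, replicate blocks and leaving out each array. Named genes were the 20 largest changes per direction among genes that passed in all 7 fits with no overlap of groups. Added to these were up to 4 per list and direction and the 10 largest per direction among bright probe sets. Genes of the series' question and genes that differed between or opposed across the lines were also named. The members and gene lists were chosen with earlier results of these data known.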

Additional observations from a re-analysis of the deposited data

Results flagged for a closer look

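Results are given here because the JHU-029 change and the FaDU change differed by the limma test of the difference itself, which 2434 of 18405 genes passed (13.2%). Values are the JHU-029 log2 change minus the FaDU log2 change, with Benjamini-Hochberg adjusted p over all genes. Among genes that fell in JHU-029, the difference was -1.34 for SESN3 (adjusted p = 4.92e-05), -1.29 for CA12 (0.00014), -1.19 for GOLGA7B (0.00032), -1.14 for CXCL14 (0.000156), -1.13 for FOXP2 (0.00208), -1.12 for ADH7 (0.00167), -1.04 for TP53AIP1 (0.00486) and -0.94 for FST (0.000136). CA12, CXCL14, FOXP2, ADH7 and TP53AIP1 were dimmer on the FaDU control arrays (means from 4.06 to 6.67) than on those of JHU-029. MMP10, at 1.83 (3.95e-06), and TPI1, at 0.43 (0.00241), fell in both lines and more in FaDU.

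Among genes that rose in JHU-029, the difference was 1.63 for CA2 (adjusted p = 7.72e-06), 1.46 for KITLG (4.81e-05), 1.13 for SYT14 (0.00102), 1.05 for TMPRSS11E (0.00028), 0.99 for NDUFB1 (0.000992), 0.86 for PLAC8 (0.00368), 0.84 for CDA (0.00124), 0.81 for SYTL2 (0.0158), 0.76 for ADAM19 (0.00456), 0.67 for MYPN (0.0102) and 0.51 for CLDN1 (0.00315). These differences passed in all 12 fits that left out 1 array of either line. So did that of the basal keratin KRT5, 1.30 (1.9e-06), which did not pass in JHU-029. KRT14, at 0.38 (0.0294), missed in 7 of the 12, those without JHU-029 control array 2 or 3, JHU-029 knockdown array 2 or 3, FaDU control array 2 or FaDU knockdown array 1 or 3 (highest adjusted p = 0.08). YAP1, at 0.24 (0.0358), missed in 9 of the 12 and passed without JHU-029 knockdown array 1, FaDU control array 2 or FaDU knockdown array 1 (highest adjusted p = 0.0978).

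The 13162 probe sets without a single gene symbol enter no comparison above. In a separate fit of the same model, 64 of them (0.486%) passed the threshold in JHU-029, 34 higher and 30 lower. The share of named genes was 3.15%, but its p-values were adjusted over the 18405 genes and not over the same set. The shares are therefore not directly comparable.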

How the results depend on the processing

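Counts depended on how the variance was estimated and on which arrays were used. Main counts were 580 genes past the threshold, 332 higher and 248 lower, 336 with the same sign in FaDU, 2434 that differed between the lines and 184 in all 7 fits. An intensity trend in the variance prior gave 1015, 583, 432 and 579, with 444 in all 7 fits. A filter on dim probe sets gave 903, 499, 404 and 549, with 371. JHU-029 arrays alone gave 392 falls, and log2(intensity + 16) gave 322 genes in all 7 fits. Leaving out 1 of the 12 arrays gave 229 to 626 genes past the threshold (229 to 485 for JHU-029 arrays), 129 to 360 higher, 93 to 277 lower, 130 to 354 with the same sign in FaDU and 1704 to 2510 that differed between the lines. The other scalings and probe set choices kept each count within 1.5 times, and the share of calls that were higher stayed between 52.14% and 59.15% across settings with all arrays.

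Of 135 named genes that passed, 0 changed sign under any setting. Those lost numbered 63 with the fixed replicate block, 19 with a random one, 18 under median centring, at most 7 under the other settings with all JHU-029 arrays and no block, and 29 to 49 without 1 JHU-029 array. Of named genes in all 7 fits, those lost with all arrays present were TMPRSS11E with the median over probe sets (0.32) and 13 under the fixed block. The filter on dim probe sets kept 121 of the 135. The named genes it removed were not tested under that setting and are not counted as lost. Signs turned for 3 genes that did not pass: ACTL6A under quantile normalisation (-0.00730), cyclic loess (-0.00933) and without an array (-0.0285 to 0.0254), CCN2 without an array (-0.00747 to 0.0859) and KRT14 without an array (-0.102 to 0.00728).

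The labels number the replicates 1 to 3 in both JHU-029 groups and do not say whether equal numbers belong together. Deviations of same-numbered arrays from their group means correlated at -0.339, -0.0104 and -0.199, and those of differently numbered arrays at -0.133 to 0.294. With 3 arrays per group these values cannot settle whether the numbers pair the samples. The main model did not pair them. A fixed replicate block gave 172 genes, 97 higher and 75 lower, 95 with the same sign in FaDU, 1396 that differed between the lines and 0 in all 7 fits. Dim genes have the larger SE, so a change of a given size passes less often there.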

Other observations

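A run of neighbouring zinc finger genes on chromosome 19, found after the values were seen, stood out among the rises. These KRAB-type factors are known mainly as repressors of transposable elements. The run around ZNF100, by the gene order of RefSeq on GRCh38.p14, lists 37 ZNF genes, of which 33 were measured. In JHU-029 10 rose and 0 fell (limma; 18 higher and 0 lower at an unadjusted p under 0.05), against 1.80% and 1.35% of all genes. Changes were positive in 30 of the 33, and in 18 all knockdown arrays lay above all controls (13.3% of all genes). The median change was 0.217, between 0.196 and 0.259 without any 1 JHU-029 array, while the number of rises was 3 to 9. ZNF738, ZNF91 and ZNF675 rose in all 7 fits. In FaDU 8 of the run rose and 0 fell, where 12.5% of all genes rose and 14.2% fell, with a median of 0.168. Of all 439 measured genes named ZNF and a number, 18 rose and 0 fell (limma; 14 lower unadjusted), 11 of the 221 on chromosome 19 and 7 of the 218 elsewhere. These genes are close in sequence, so probes may read more than 1 of them, and the list was chosen for its rises, so it was not tested.

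Genes of fatty acid oxidation and small nucleolar RNAs were also looked at after their values were seen. Of 38 measured fatty acid oxidation genes, CPT2, SLC25A20, ACAT1, CROT, ACSL1, ACSF2 and HACL1 rose and 0 fell (limma; 0 lower at an unadjusted p under 0.05), with a median of 0.0635. None of the 7 passed in all 7 fits, and the count without 1 JHU-029 array ran from 0 to 8. Of 12 genes from tryptophan to kynurenine, TDO2 and KMO rose, again not in all 7 fits. Among 175 small nucleolar RNA genes, SNORA71A, SNORA75, SNORD104, SNORD15B and SNORD43 fell and 0 rose (limma; 26 lower and 2 higher unadjusted), none in all 7 fits. Changes were negative in 120 of the 175, with a median of -0.0746. Small nucleolar RNA genes thus passed at 2.86%, all as falls, where 1.35% of all genes fell and 3.15% passed in either direction. Protein coding genes passed at 3.34% and long noncoding RNA genes at 0.639%.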
